A study of Mus musculus with 7 samples.

Results

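Thy1 and 6 members of the Ly6 family (Ly6a, Ly6e, Ly6c1, Ly6c2, Ly6d and Ly6g) were followed in group 2 innate lymphoid cells (ILC2s) sorted from mouse hearts. These 7 genes were picked by symbol from the 55335 genes of the deposited tables, and all 7 were found, each in 1 row. Naive hearts gave 3 libraries. Allografts gave 4 libraries, from Balb/C hearts placed in C57BL/6 recipients, a model of acute rejection, and collected 7 days after transplantation. The sort kept cells positive for CD45 and ST2 (the IL-33 receptor, encoded by Il1rl1) and negative for a lineage panel, and each library pools the cells of 4 to 7 hearts. The labels give neither a strain nor a sex for the naive hearts, no genotype for any sample, and a time of 7 days for naive libraries as well. They do not say whether cells sorted from an allograft came from the donor or the recipient, so the 2 origins cannot be told apart here.

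Thy1 and the Ly6 proteins are small surface antigens held in the outer leaf of the membrane by a glycosylphosphatidylinositol (GPI) lipid anchor. Thy1 (CD90) is an immunoglobulin-fold protein of mouse T cells and innate lymphoid cells, while Ly6 proteins share a fold of finger-like loops pinned by disulfide bonds. Most of them are known as antibody targets by which immune cells are sorted: Thy1 and Ly6a (Sca-1) for ILC2s, Ly6c for monocytes, Ly6g for neutrophils. Ly6a and Ly6e are also known interferon-inducible genes.

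The 6 Ly6 genes lie within 1 cluster on chromosome 15 of GRCm38, the assembly also named mm10, and Thy1 on chromosome 9. In the GENCODE M21 annotation Thy1 (ENSMUSG00000032011) spans 9:44043384-44048579 on the plus strand. Along chromosome 15 the order is Ly6d (ENSMUSG00000034634) at 15:74762056-74763620, minus strand, then Ly6e (ENSMUSG00000022587) at 15:74955051-74959905, plus strand. Ly6a (ENSMUSG00000075602) follows at 15:74994877-74998031, minus strand, and Ly6c1 (ENSMUSG00000079018) at 15:75044018-75048830, minus strand. Ly6c2 (ENSMUSG00000022584) lies at 15:75108158-75111970, minus strand, and Ly6g (ENSMUSG00000022582) at 15:75155240-75159126, plus strand. All 7 are protein coding, and 0 annotated genes overlap any of them.

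Ly6c1 and Ly6c2 are shown by sequence because they are nearly the same, so that counting can assign a read to the wrong one. Their coding sequences are 393 bases each and align without a gap, with 384 identical bases (97.7%), 9 mismatches and a longest identical run of 188 bases. The first 300 coding bases of each, in the sense direction from the start codon and read from the GRCm38 genome, hold 7 of the 9 mismatches, which are in capitals.
Ly6c1: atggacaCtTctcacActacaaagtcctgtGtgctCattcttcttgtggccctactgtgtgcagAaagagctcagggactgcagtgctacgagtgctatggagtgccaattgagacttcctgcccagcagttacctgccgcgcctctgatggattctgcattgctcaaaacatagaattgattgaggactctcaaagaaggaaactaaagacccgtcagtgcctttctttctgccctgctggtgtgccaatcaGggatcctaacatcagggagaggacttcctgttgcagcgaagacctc
Ly6c2: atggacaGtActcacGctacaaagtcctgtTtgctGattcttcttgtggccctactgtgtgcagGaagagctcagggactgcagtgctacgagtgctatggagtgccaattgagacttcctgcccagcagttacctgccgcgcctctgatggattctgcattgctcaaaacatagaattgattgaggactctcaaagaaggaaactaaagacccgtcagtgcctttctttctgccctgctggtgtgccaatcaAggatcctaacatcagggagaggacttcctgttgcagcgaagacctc
Both sequences run 5′ to 3′. Ly6a is more distant: its coding sequence was 81.8% identical to that of Ly6c1, 81.6% to Ly6c2 and 83.1% to Ly6g. Its annotated transcripts still share 195 stretches of 50 bases with those of Ly6c1, against 3 with Ly6c2 and 0 with Ly6g. Naive replicate 3 had 14426 counts for Ly6a and 0 for Ly6c1. Ly6d, Ly6e and Thy1 shared 0 stretches of 50 bases with any other of the 7 genes. How the authors' counting treated reads that fit several genes is not given in the sources used here, so the division between Ly6c1 and Ly6c2 is uncertain.

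The libraries held 29107326 to 53044907 counts, and levels below are CPM, a gene's count over that total with the usual scaling, unless FPKM, which is also divided by gene length, is named. Naive replicate 2 stood apart. Summed over 10 genes of ILC2 identity and the sort gate, it had 1201 CPM, against 10443 and 15046 CPM in naive replicates 1 and 3 and 10057 to 10814 CPM in the allografts. Il1rl1, which encodes the sorted receptor, was at 6.79 CPM in it and at 343 to 756 CPM in the other 6 libraries. Its 12 kidney epithelium genes summed to 10652 CPM, against 70.8 to 318 CPM elsewhere, led by Umod (4096 CPM) and Kap (3453 CPM), and its 12 endothelial genes to 746 CPM, against 45.0 to 62.8 CPM. The comparisons of the 7 genes are therefore also given without naive replicate 2, and the part of these other transcripts in any difference was not tested. Each library is a bulk pool, in which fewer cells of a type and less RNA per cell cannot be told apart, and the p-values measure the spread between such pools.

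Per length, Ly6e and Ly6a were the 2 most abundant of the 7 genes in every library but naive replicate 2, where Ly6c1 (76.1 FPKM) was above Ly6e (65.1 FPKM). In the allografts Ly6e averaged 389.9 ± 30.3 FPKM (SD, n = 4) and Ly6a 264 ± 158 FPKM. Their order was not the same in every pool: Ly6a (485 FPKM) was above Ly6e (403 FPKM) in allograft replicate 2, and Ly6e was above Ly6a in the other 3. Next came Ly6d at 42.6 ± 12.5 FPKM and Thy1 at 30.9 ± 8.81 FPKM, whose ranges overlap. Ly6c1 (2.48 ± 0.693 FPKM), Ly6c2 (1.86 ± 1.23 FPKM) and Ly6g (0.832 ± 1.24 FPKM) were low, and neighbours in that order also overlap. In the naive libraries Ly6a averaged 498 ± 406 FPKM (SD, n = 3), Ly6e 212 ± 208 FPKM and Thy1 14.8 ± 12.7 FPKM, each with an SD close to its mean. Ly6c1 averaged 26.0 ± 43.4 FPKM, Ly6d 4.45 ± 4.38 FPKM and Ly6c2 0.647 ± 1.12 FPKM, and Ly6g had 0 counts. By FPKM rank among all genes, Ly6a stood between 52 and 459 and Ly6e between 130 and 703 over the 7 libraries. Thy1 stood between 1281 and 2684 in 6 libraries and at 13245 in naive replicate 2.

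**Figure D1:**
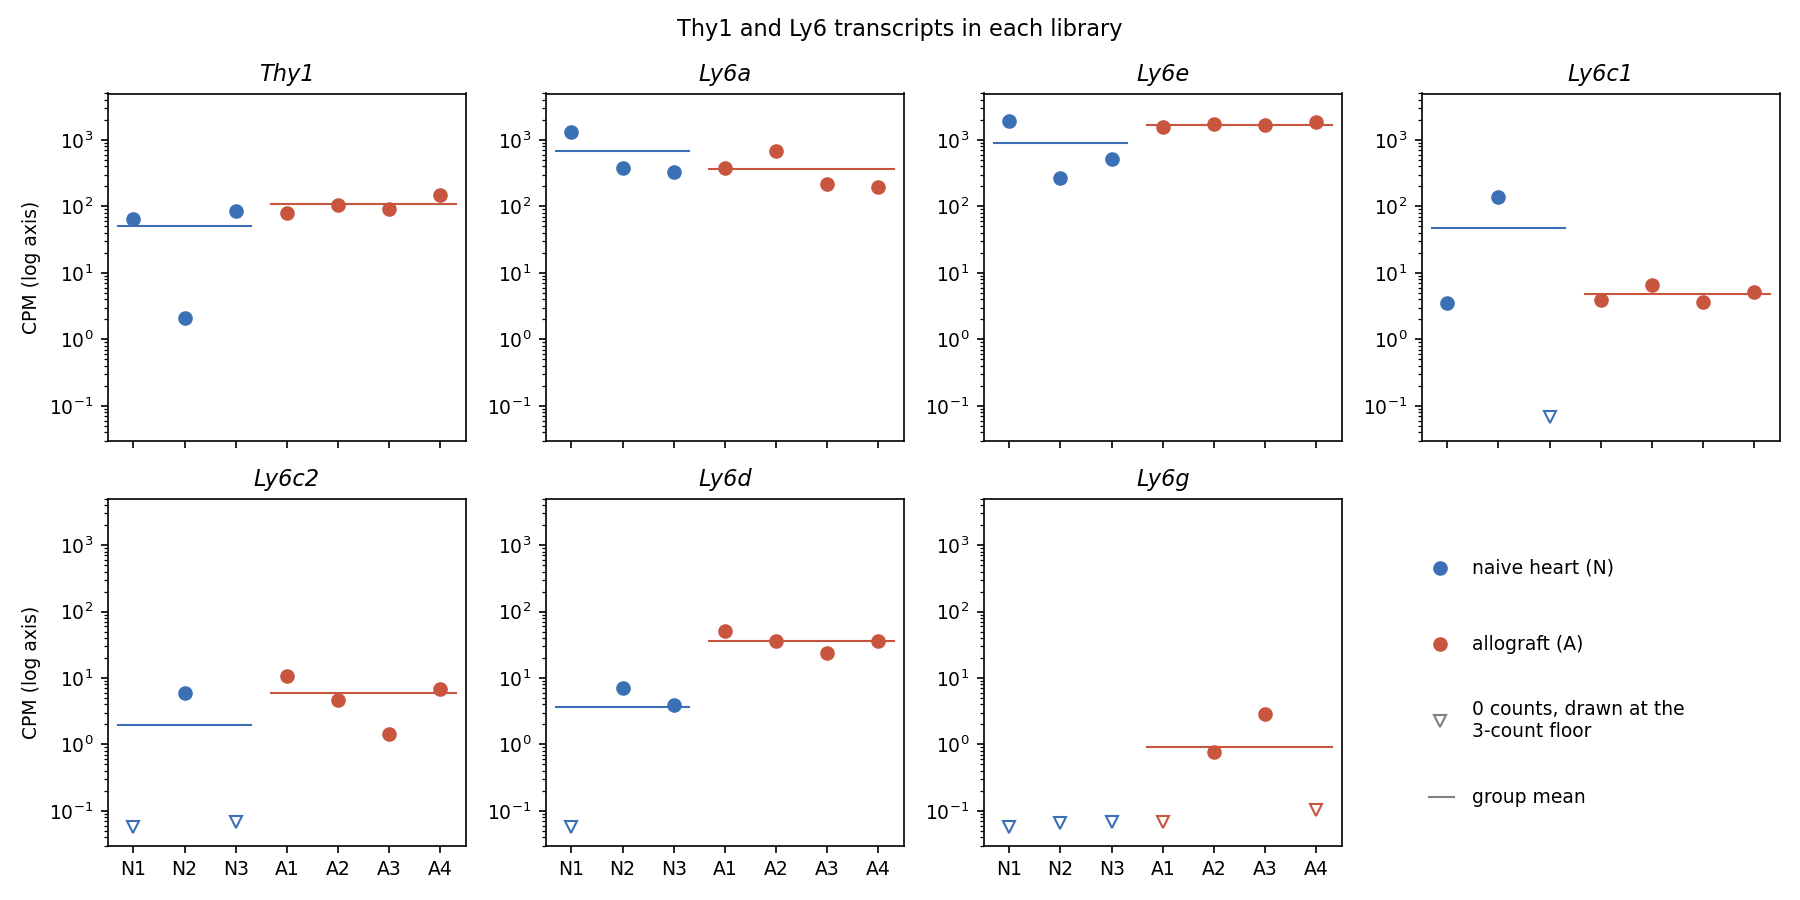
CPM of each gene (vertical log axis) in the 3 naive (N1 to N3, blue) and 4 allograft (A1 to A4, red) libraries, with the group mean as a line and libraries at 0 counts drawn as open triangles at the value that 3 counts would have. The 4 Ly6d values of the allografts, 24.1 to 50.7 CPM, lie above the 3 naive values, while for the other genes the groups overlap.

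Between naive and allograft ILC2s, none of the 6 genes that could be tested passed an adjusted p of 0.05 in edgeR's quasi-likelihood test with Benjamini-Hochberg adjustment over all genes. In that comparison 6 of 17015 genes passed (0.0353%), and 1748 (10.3%) had an unadjusted p under 0.05, which 0 of the 6 had. Their fitted log2 fold changes, allograft over naive, were positive for Thy1, Ly6e, Ly6c2 and Ly6d and negative for Ly6a and Ly6c1. Ly6g, seen in 2 libraries, did not pass the filter on low counts. DESeq2's Wald test, which called 1012 genes, passed 0 of the 5 to which it gave a p, and gave none for Ly6c1 (log2 fold change -4.25). Without naive replicate 2, 560 of 18037 genes passed (3.1%), and 1 of the 7 genes then tested, Ly6c2, was among them.

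**Figure D2:**
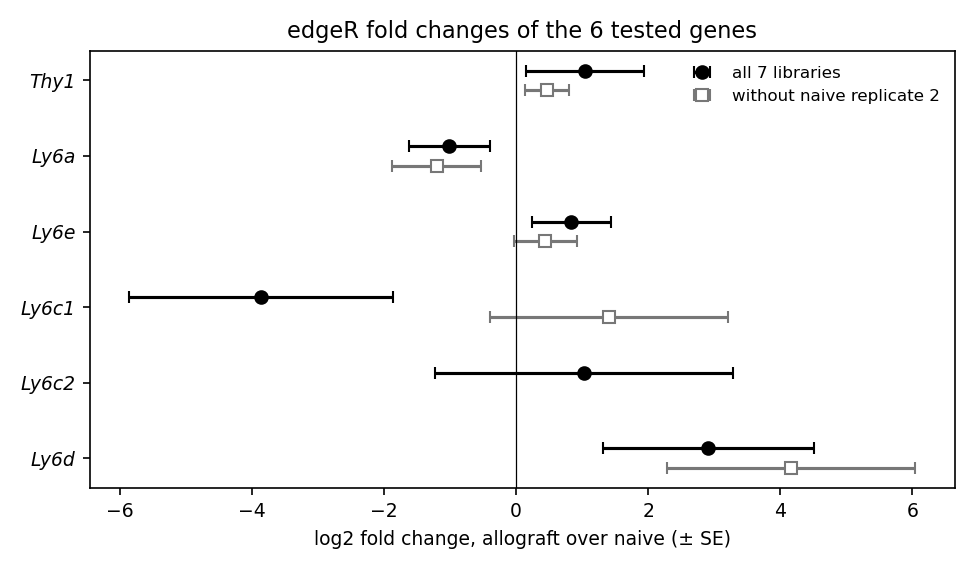
Log2 fold change (horizontal axis, allograft over naive) with its standard error for the 6 tested genes, with all 7 libraries (filled circles) and without naive replicate 2 (open squares, not drawn for Ly6c2, whose remaining naive libraries are at 0). Ly6c1 moves from -3.86 to 1.41, and Ly6a stays below 0 in both.

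Thy1, the CD90 antigen, was measured at 64.3, 2.11 and 85.0 CPM in naive replicates 1, 2 and 3. In allograft replicates 1 to 4 it was at 80.5, 106.6, 91.6 and 149.7 CPM. Naive replicate 2 was far below every other library, and naive replicate 3 lay above allograft replicate 1, so the groups overlap. Allograft over naive, the log2 fold change was 1.05 (SE 0.894, adjusted p = 0.790, edgeR), and without naive replicate 2 it was 0.47 (SE 0.327, adjusted p = 0.472). Per Gata3, the transcription factor of the ILC2 fate, Thy1 stood at 0.0982, 0.0606 and 0.0876 of the Gata3 CPM in the naive libraries and at 0.106 to 0.171 in the allografts, above all 3. Per Il1rl1, the naive ratios of 0.0863, 0.311 and 0.248 lay on both sides of the allograft range of 0.141 to 0.207. The Thy1 level relative to the ILC2 genes therefore depends on which of them is the reference. The 10 T cell genes summed to 205 to 256 CPM in the allografts and to 81.4, 9.30 and 175 CPM in the naive libraries. Most of that was Cd3g, a part of the T cell receptor complex, at 175 to 219 CPM in the allografts and at 79.0, 6.00 and 124 CPM in the naive libraries. Trat1, which encodes an adaptor bound to that complex, was at 0, 0 and 5.80 CPM in the naive libraries and at 13.4 to 18.8 CPM in the allografts. Cd247 was at 0, 0.659 and 0 CPM and at 4.36 to 13.3 CPM, and was the 1 gene of the list to pass without naive replicate 2 (adjusted p = 0.0384, edgeR). Others of the list did not rise. Cd3d was at 1.68, 2.48 and 32.5 CPM in the naive libraries and at 3.57 to 8.64 CPM in the allografts (log2 fold change -1.13). Cd4 was at 0, 0 and 11.6 CPM and at most 0.721 CPM. Cd3e was at most 1.24 CPM in every library. Further genes of the list were low but higher in some allografts. Cd8a, Cd8b1 and Cd5 had 0 counts in all naive libraries and reached 2.25, 2.64 and 0.273 CPM in the allografts. Cd6 was at most 0.0459 CPM in the naive libraries and reached 1.07 CPM in the allografts. Cd8b1 and Cd6 had unadjusted p of 0.0210 and 0.0393 (edgeR, adjusted p = 0.341 and 0.438). Of the 7 tested genes of the list, 5 had a positive log2 fold change and 2 a negative one. The part of T cells in the Thy1 level was not tested.

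Ly6a, which encodes Sca-1, is a marker of haematopoietic progenitors and of ILC2s. It was at 1328, 375 and 331 CPM in the naive libraries and at 382, 674, 219.7 and 195 CPM in the allografts. Naive replicate 1 was the highest of the 7 libraries by CPM, and the other naive values fell inside the allograft range. Its log2 fold change was -1.01 (SE 0.614, adjusted p = 0.684, edgeR) and, without naive replicate 2, -1.21 (SE 0.669, adjusted p = 0.345). Without naive replicate 1 it was -0.29 (adjusted p = 0.821). Ly6a, unlike Thy1, was not low in naive replicate 2, where it was 55.2 times the Il1rl1 CPM, against 1.78 and 0.963 times in naive replicates 1 and 3 and 0.270 to 0.891 times in the allografts. Sca-1 is also known on vascular endothelium and stromal cells, and the 12 endothelial genes were highest in that library. Of the fibroblast genes, Dcn was at 0, 105 and 82.5 CPM in the naive libraries and 4.58 to 31.9 CPM in the allografts, and Gsn at 7.77, 146 and 80.8 CPM and at 94.1 to 127 CPM. The 10 fibroblast genes summed to 7.82, 338 and 260 CPM and to 115 to 181 CPM. Without naive replicate 2, 1 of 10 tested passed, Col3a1, as higher (adjusted p = 0.0437, edgeR). Col3a1 was at 0, 8.40 and 0 CPM in the naive libraries and at 2.45 to 15.8 CPM in the allografts. The part of endothelial and stromal cells in the Ly6a count of naive replicate 2 was not tested.

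Ly6e encodes a GPI-anchored protein of immature thymocytes and many other cells that is known to restrain the entry of some viruses. Its values were 1947, 269 and 512 CPM in the naive libraries and 1542, 1758, 1678 and 1842 CPM in the allografts. The allografts sat close together, naive replicate 1 lay above all of them, and naive replicates 2 and 3 lay below, so the groups overlap through 1 library. Its log2 fold change was 0.84 (SE 0.596, adjusted p = 0.741, edgeR), and without naive replicate 2 it was 0.44 (SE 0.476, adjusted p = 0.680). Without naive replicate 1 it was 1.88 (adjusted p = 0.0876). Per Gata3, Ly6e was at 2.20 ± 0.157 times its CPM (SD, n = 4) in the allografts and at 2.98, 7.71 and 0.528 times in naive replicates 1, 2 and 3.

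Among the allograft pools alone, Ly6e varied little and Ly6a much. For the 3 members with an average log2 CPM of at least 5, the coefficient of variation (CV) of the 4 CPM values was 7.48% for Ly6e, 28.4% for Thy1 and 59.9% for Ly6a. Among the 4939 tested genes at or above that level, the median CV was 16.8%, and 9.23% of these genes had a lower CV than Ly6e, 85.3% than Thy1 and 98.4% than Ly6a. Of the members below that level, Ly6c2 had a CV of 66.3%, Ly6d 29.7% and Ly6c1 27.5%. The highest allograft value of Ly6a was 3.46 times the lowest, and that of Ly6e 1.19 times. Ly6a was high in allograft replicate 2 and low in allograft replicates 3 and 4, while the 10 ILC2 identity genes summed to 10774, 10814 and 10057 CPM in those libraries. These spreads are descriptions over 4 pools and carry no test.

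**Figure D3:**
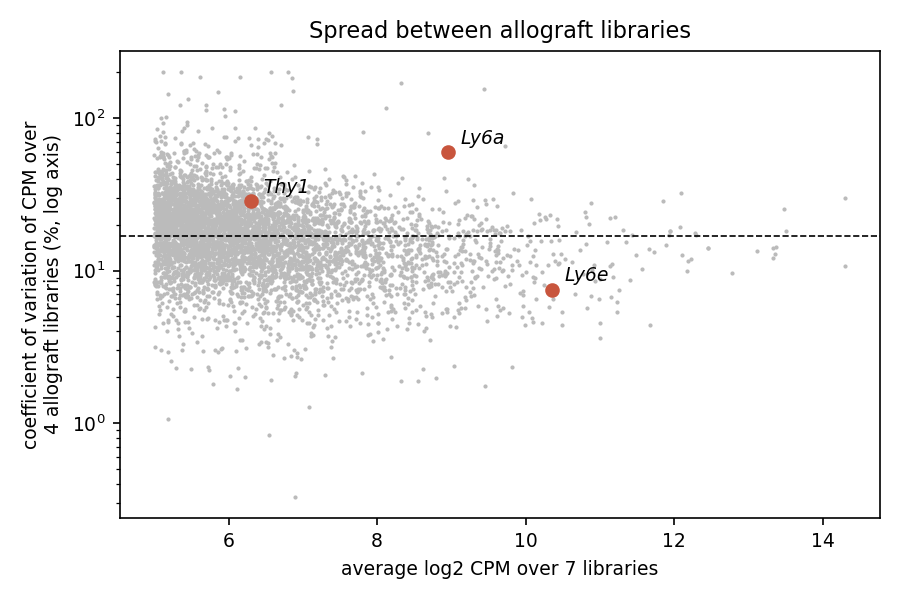
Coefficient of variation of CPM over the 4 allograft libraries (vertical log axis, percent) against average log2 CPM over the 7 libraries for 4939 genes (grey), with the median of 16.8% dashed. Ly6a (59.9%) lies at the upper edge of genes of its level and Ly6e (7.48%) in the lower part.

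Ly6d marks early lymphoid progenitors on the path to B cells and is also expressed in stratified epithelium. It had 0 counts in naive replicate 1 and stood at 7.10 and 3.88 CPM in naive replicates 2 and 3. The allografts were at 50.7, 36.3, 24.1 and 35.6 CPM. Every allograft was above every naive library, on this scale and on CPM scaled by edgeR's trimmed mean of M-values (TMM). Of the 6 tested genes Ly6d was the only 1 with this pattern. Of all 17015 genes, 2131 (12.5%) showed it by CPM of the total and 1795 (10.5%) by TMM-scaled CPM, so 1 in 6 is near the share of all genes. For Ly6d the log2 fold change was 2.91 (SE 1.60, adjusted p = 0.638, edgeR) and, without naive replicate 2, 4.17 (SE 1.88, adjusted p = 0.271). The B cell and plasma cell list of 10 genes summed to 126 to 210 CPM in the allografts and to 120, 45.3 and 0 CPM in the naive libraries. In that list Jchain, the joining chain of secreted antibodies, had 0 counts in all 3 naive libraries and 33.4 to 59.1 CPM in the allografts and passed the test (adjusted p = 0.0278, edgeR). With naive replicate 2 left out, Jchain, Ms4a1 and Ebf1 passed as higher. Ms4a1 (CD20) had 0 counts in all naive libraries and 13.6 to 34.1 CPM in the allografts. Cd79b, a part of the B cell receptor, was at 117, 1.41 and 0 CPM in the naive libraries and at 34.6 to 47.7 CPM in the allografts. The 10 genes of the stratified epithelium list summed to 43.7 to 59.6 CPM in the allografts and to 30.1, 1166 and 63.3 CPM in the naive libraries. Most of these sums came from Epcam, Krt8, Krt18, Cdh1 and Sfn, so they do not measure stratified epithelium alone. Trp63 had 0 counts in every library, and Krt5 was at most 0.182 CPM. Krt14 and Krt15 were at 2.22 and 10.8 CPM in naive replicate 2 and at 0 elsewhere. Epcam and Krt8 led that list at 399 and 311 CPM in naive replicate 2, against at most 29.3 and 5.94 CPM elsewhere. Without that library 3 of 5 tested passed as higher, Krt8, Krt18 and Cdh1. The part of B-lineage or epithelial cells in the Ly6d level was not tested.

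The Ly6c pair divided differently in naive replicate 2 than in the allografts. Ly6c1, known in endothelium as well as in lymphocytes and monocytes, was at 3.58, 139 and 0 CPM in the naive libraries and at 3.93, 6.57, 3.67 and 5.19 CPM in the allografts. Naive replicate 2 alone set the high naive mean. Naive replicate 1 (3.58 CPM, 190 counts) lay close to the lowest allograft (3.67 CPM, 150 counts), and naive replicate 3 was at 0. The log2 fold change was -3.86 (SE 2.00, adjusted p = 0.601, edgeR) and turned to 1.41 (SE 1.80, adjusted p = 0.738) without naive replicate 2. In naive replicate 2 the endothelial gene Emcn stood at 251 CPM, against at most 4.60 CPM in the other 6 libraries. Pecam1 was at 8.62, 37.7 and 6.97 CPM in the naive libraries and at 29.4 to 39.1 CPM in the allografts. With naive replicate 2 left out, Pecam1 and Vwf were the 2 of 11 endothelial genes to pass, both as higher. The part of endothelial RNA in its Ly6c1 count was not tested.

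Ly6c2 encodes the Ly6C antigen of inflammatory monocytes. It had 0 counts in naive replicates 1 and 3 and was at 5.85 CPM in naive replicate 2, and the allografts were at 10.7, 4.60, 1.42 and 6.94 CPM. The naive value of replicate 2 lay inside the allograft range. The log2 fold change was 1.03 (SE 2.25, adjusted p = 0.944, edgeR). Without naive replicate 2 Ly6c2 passed the test, with an adjusted p of 0.0482. With both naive libraries then at 0, the allograft mean of 5.93 CPM was at least 86.1-fold higher than the 0.0688 CPM that 3 counts in 1 library would give, and the lowest allograft at least 20.6-fold higher. That call rests on leaving out 1 library. The 13 monocyte and macrophage genes summed to 604 to 884 CPM in the allografts and to 209, 354 and 1241 CPM in the naive libraries. Of the 2 naive libraries at 0 for Ly6c2, replicate 3 thus had the highest sum of all 7, with 432 CPM of the lysozyme gene Lyz2 and 514 CPM of the chemokine receptor gene Ccr2. The macrophage receptor gene Csf1r was at 11.0 CPM there and at 0.636 to 2.78 CPM in the allografts. Like Ly6c2, Cd68 and C1qa had 0 counts in naive replicates 1 and 3, and they were at 14.9 and 13.1 CPM in naive replicate 2. In the allografts Cd68 was at 11.7 to 27.8 CPM and C1qa at 1.23 to 4.06 CPM. These were the 2 of 12 genes of the list to pass without naive replicate 2, both as higher (adjusted p = 0.0252 and 0.0446, edgeR). The part of monocytes and macrophages in the Ly6c2 level was not tested.

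Ly6c2 made up 62.6%, 30.0%, 19.3% and 45.0% of the summed FPKM of Ly6c1 and Ly6c2 in allograft replicates 1 to 4. In naive replicates 1 and 2 it made up 0% and 2.49%, and naive replicate 3 had 0 counts for both genes and gives no share. All 4 allograft shares were above both naive shares. The mean difference was 38.0 percentage points, with an exact two-sided permutation p of 0.133 (n = 2 and 4), where the smallest p that the 15 splits allow is 0.0667. As a share of counts, naive replicate 1 had 0 Ly6c2 of 190, which allows a share of up to 1.58% by 3 counts (Wilson 95% upper limit 1.98%), and naive replicate 2 had 4.04% (Wilson 95% interval 3.59 to 4.54%). The allografts had 73.2% (69.7 to 76.5%), 41.2% (36.2 to 46.3%), 27.9% (22.2 to 34.3%) and 57.2% (52.0 to 62.3%). These intervals cover counting error only, and amplified reads without molecular identifiers are not independent molecules. Summed before the fit, an alternative chosen after seeing the data that does not depend on how reads were divided between the pair, Ly6c1 and Ly6c2 had a log2 fold change of -2.76 (adjusted p = 0.735, edgeR) with all libraries and 2.57 (adjusted p = 0.498) without naive replicate 2. The sum of Ly6a, Ly6c1, Ly6c2 and Ly6g, of which Ly6a is by far the largest part, had a log2 fold change of -1.11 (adjusted p = 0.627), and of -1.16 (adjusted p = 0.356) when naive replicate 2 was left out.

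**Figure D4:**
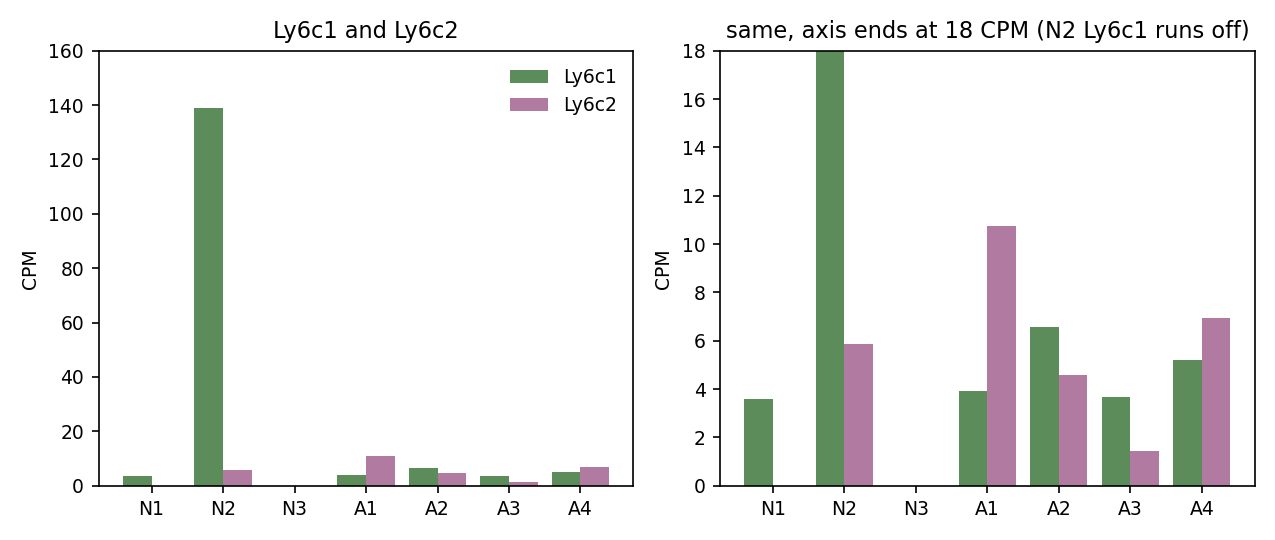
CPM of Ly6c1 (green) and Ly6c2 (purple) as bars from 0 in each naive (N) and allograft (A) library, on a full axis (left) and on an axis that ends at 18 CPM (right). Ly6c1 reaches 139 CPM in naive replicate 2, while in allograft replicates 1 and 4 Ly6c2 is the higher of the pair.

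Ly6g, the antigen by which neutrophils are recognised, had 0 counts in the 3 naive libraries and in allograft replicates 1 and 4. Allograft replicates 2 and 3 had 25 and 117 counts, or 0.771 and 2.86 CPM. A count of 0 allows up to 0.0566 to 0.103 CPM in these libraries. The neutrophil list of 12 genes summed to 82.6 to 139 CPM in the allografts and to 5.17, 13.9 and 5.60 CPM in the naive libraries. Most of it came from genes of abundant neutrophil proteins, S100a8 (23.2 to 45.8 CPM in the allografts) and Retnlg (37.7 to 62.0 CPM). The neutrophil receptor gene Cxcr2 was at 2.45 CPM in allograft replicate 3 and at 0 in the other 6 libraries, Csf3r was at most 0.309 CPM in every library, and Elane was at 0 in all allografts. Ngp had 0 counts in the naive libraries and was at 1.73 to 9.27 CPM in the allografts, and Camp had 0 counts and was at 0.832 to 1.42 CPM. With all libraries 0 of 8 tested genes of the list passed. When naive replicate 2 was left out, 3 of 10 passed as higher: S100a8, S100a9 and Ngp (adjusted p = 0.0227, 0.0316 and 0.0437, edgeR). The neutrophil sums of allograft replicates 1 to 4 were 139, 82.6, 83.5 and 94.0 CPM. The part of neutrophils in the Ly6g counts was not tested. Ly6g passed the count filter when naive replicate 2 was left out and did not pass the test (adjusted p = 0.325, edgeR).

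**Figure D5:**
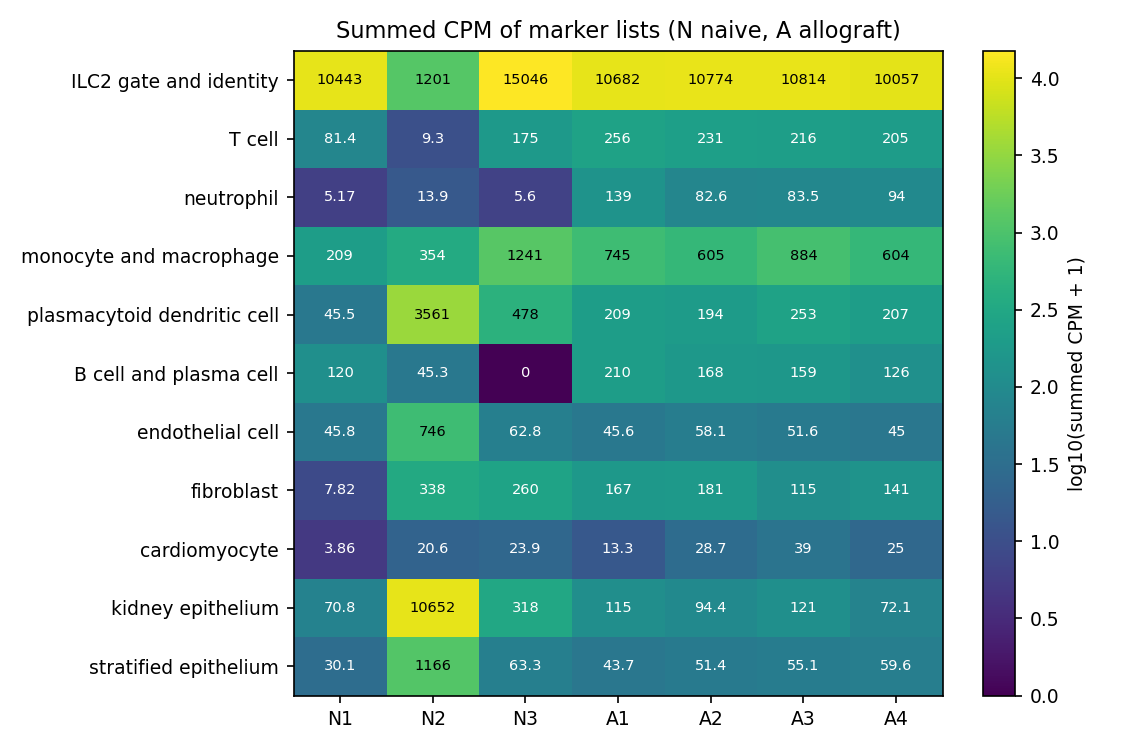
Summed CPM of the ILC2 list and 10 lists of other cell types (rows) in each naive (N) and allograft (A) library (columns), coloured by log10 of the sum + 1 and printed in each cell. Naive replicate 2 is low in the ILC2 row (1201 CPM) and high in the kidney row (10652 CPM), and the neutrophil row is higher in the 4 allografts than in the 3 naive libraries.

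Most of the rest of the Ly6 and uPAR family was low or at 0. Of 36 further family genes in the tables, 16 had 0 counts in every library, and 12 had their highest level in naive replicate 2. Of the 10 tested, 0 passed in either direction, with a median log2 fold change of -2.97, against -0.01 for all genes. Without naive replicate 2 that median was 4.43, against 0.23 for all genes, again with 0 past the threshold. Plaur, the urokinase receptor, was the most abundant per length, with a mean of 30.2 FPKM over the 7 libraries against 24.0 FPKM for Thy1. It was at 12.7, 71.7 and 254 CPM in the naive libraries and 56.9 to 83.0 CPM in the allografts. The complement inhibitor gene Cd59a was at 154 CPM in naive replicate 2 and at most 6.42 CPM elsewhere. Ly6g5b was at 26.3, 0 and 0 CPM in the naive libraries and 9.62 to 17.3 CPM in the allografts. Ly6a2, a neighbour in the family, had 0 counts in all naive libraries and at most 1.45 CPM in the allografts (unadjusted p = 0.0224, adjusted p = 0.342, edgeR).

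The machinery that builds and attaches the GPI anchor was expressed in both groups. Of 29 tested genes 0 passed in either direction, with all libraries (median log2 fold change -0.12) or with naive replicate 2 left out (-0.05). Pigk, the catalytic subunit of the transamidase that attaches the anchor, was at 68.1, 36.0 and 65.7 CPM in the naive libraries and at 30.1 to 40.7 CPM in the allografts (log2 fold change -0.79, SE 0.291, adjusted p = 0.374, edgeR). Pigs, another subunit, ranged from 3.95 to 122 CPM in the naive libraries and from 71.6 to 125 CPM in the allografts. Pigyl and Dpm3 act in the opening step and in the supply of the mannose donor. They were at 52.1 to 57.2 and 31.3 to 43.1 CPM in the allografts and spanned those ranges in the naive libraries.

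Among other GPI-anchored proteins of leukocytes, 0 of 18 tested genes passed. Their median log2 fold change was -0.11 and turned to 1.09 with naive replicate 2 left out. Cd52, the small CAMPATH antigen, was at 2699, 47.0 and 772 CPM in the naive libraries and 2344 to 2983 CPM in the allografts, and like Thy1 was lowest in naive replicate 2. The class Ib gene H2-Q7 was at 478, 21.1 and 645 CPM and at 592 to 742 CPM. Cd24a was at 419 CPM in naive replicate 2 and at 16.1 to 46.8 CPM in the other 6 libraries. Without naive replicate 2, 1 of 19 passed: Cd55, which inhibits complement, as higher (adjusted p = 0.0433). It had 0 counts in naive replicates 1 and 3 and was at 1.84 to 2.75 CPM in the allografts. Naive replicate 2, at 10.2 CPM, was above all of them, and with it the log2 fold change was -1.06.

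Interferon response genes, the programme to which Ly6a and Ly6e are known to belong, had 0 of 35 past the threshold in either direction, with a median log2 fold change of 0.43 (0.71 with naive replicate 2 left out). At an unadjusted p under 0.05, 0 were higher and 3 lower. Irf1, an interferon-induced transcription factor, was at 150, 42.0 and 142 CPM in the naive libraries and at 31.0 to 58.1 CPM in the allografts (log2 fold change -1.38, SE 0.402, adjusted p = 0.277, edgeR). Ifi27l2a was at 6.47, 11.7 and 0 CPM in the naive libraries and at 55.2 to 67.1 CPM in the allografts, and the tether protein gene Bst2 at 63.4, 24.8 and 43.5 CPM and at 65.2 to 92.5 CPM. Every allograft was above every naive library for these 2 genes, with adjusted p of 0.617 and 0.584. Ifitm3 was at 224 CPM in naive replicate 2 and between 7.84 and 45.6 CPM in the other libraries. Without naive replicate 2, Gbp3 (adjusted p = 0.0234) and Mx1 (adjusted p = 0.0466) passed as higher, both at 0 counts in the remaining naive libraries and at 8.05 and 0.615 CPM in the one left out, and Irf1 as lower (adjusted p = 0.0437). Ly6e and Ly6a, with log2 fold changes of 0.44 and -1.21 in that comparison, did not pass.

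Of the ILC2 identity genes 0 of 10 passed, and their median log2 fold change was 0.32. Leaving out naive replicate 2 gave -0.26. Id2, a regulator common to innate lymphoid cells, was at 5509, 977 and 7565 CPM in the naive libraries and 4338 to 5445 CPM in the allografts. Klrg1, a receptor of mature ILC2s, was at 818, 8.40 and 216 CPM and at 669 to 1042 CPM. Of the remaining lists, the plasmacytoid dendritic cell genes were led by Klk1, also a kidney gene (3.47, 3489 and 302 CPM in the naive libraries, 56.5 to 96.6 CPM in the allografts), and Irf8 (10.6, 15.8 and 25.5 CPM, against 72.1 to 93.3 CPM). The cardiomyocyte genes were led by Ttn (3.86, 1.17 and 14.6 CPM, against 7.70 to 35.4 CPM) and Tnni3 (0, 1.36 and 9.22 CPM, against 0 to 3.57 CPM). Over the 10 cell type lists 1 gene passed with all libraries and 17 with naive replicate 2 left out.

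Genes whose log2 CPM followed the members most closely were sought among 4938 others with an average log2 CPM of at least 5, by the root mean square difference of centred values over the 7 libraries. For Thy1 the nearest were Arhgap45 (0.208), Fmnl1 (0.209), Dock2 (0.214), Furin (0.217) and Lilr4b (0.263), of which Fmnl1 and Dock2 are cytoskeletal regulators of leukocytes. For Ly6e they were Gm4204 (0.127), Gm8186 (0.137), Rad50 (0.150), Rbl2 (0.158) and Gm4617 (0.161). Ly6a had no neighbour as near: Nob1 (0.456), Zdhhc6 (0.459), Mfsd5 (0.469), Nde1 (0.515) and Ube2g1 (0.523) came first. Such likeness rests on 7 points, 1 of which is naive replicate 2, and is a description.

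RefSeq promoter windows were at hand for 3 of the 7 genes, Ly6c1, Ly6c2 and Ly6g. Both strands were searched for the interferon-gamma activated site TTCNNNGAA and for GAAANNGAA, part of the interferon-stimulated response element. Neither was present in those windows, and 8.30% and 8.56% of 32851 promoter windows of the same length hold them.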

How the data were processed

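RNA of sorted ILC2s was amplified as full-length cDNA. Read counts per gene and FPKM were deposited by the authors as 1 table each. The submitters' processing notes name FastQC 0.11.5, STAR 2.5.3a, StringTie 1.3.1c, DESeq2 1.16.1 and mm10. Over 7340 genes the log2 ratio of FPKM to CPM, less each gene's mean, had an SD of 0.00248, so both tables follow the same counts.

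Counts were tested with edgeR 4.0.16 (quasi-likelihood, TMM, filterByExpr, all 7 libraries, R 4.3.3), which kept 17015 of 55335 genes, with p-values adjusted over all of them (threshold 0.05). CPM is of the total deposited count. Alternatives used DESeq2 1.42.0, limma 3.58.1 on log2(FPKM + 1) and log2(FPKM + 0.1), other filters, a replicate block, and each library left out. The fit was tested on simulated counts. Members and lists were chosen with earlier results of these data known. Named list genes are the 3 with the highest mean FPKM and the 1 with the smallest p per list, plus 2 per cell type by CPM. Other list genes that are named (among them Cd3e, Cd5, Csf3r, Elane, Csf1r and those past the threshold without naive replicate 2) were chosen after their values were seen. Depth was 29107326 to 53044907 counts. A gene at 0 was given a floor of 3 counts.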

Additional observations from a re-analysis of the deposited data

Results flagged for a closer look

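Among 62 groups of 4 allograft values examined for a library far from the others, where chance alone gives about 1 in 20, or 3.1, there was 1. S100a8, which encodes an abundant neutrophil protein, was at 45.8 CPM in allograft replicate 1 and at 23.2 to 26.0 CPM in the other 3 allografts.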

How the results depend on the processing

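Over 14 alternatives, of which DESeq2's Wald test gave Ly6c1 no p, Thy1, Ly6e, Ly6d and Ly6c2 stayed positive and Ly6a negative, and 1 call was made, Ly6c2 without naive replicate 2. That left 1 of the 7 genes past the threshold in place of 0, 4 of 103 genes of the 5 pathway lists in place of 0 of 100, and 17 genes of the cell type lists in place of 1. The log2 fold change of Ly6c1 changed sign to 0.029 with limma on log2(FPKM + 0.1), 0.25 with the replicate block and, leaving out 1 library, ranged from -4.42 (naive replicate 3) to 1.41 (naive replicate 2). That of the summed Ly6c1 and Ly6c2 changed to 1.98 with the block and ranged from -3.32 to 2.57 for the same omissions. The 4-gene sum (Ly6a, Ly6c1, Ly6c2 and Ly6g) ranged from -1.55 to -0.55.

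Genes past the threshold were 6 in the main test, 1012 with DESeq2's Wald test, 76 and 201 with limma on log2(FPKM + 1) and log2(FPKM + 0.1), and 0 with the replicate block (252 at an unadjusted p under 0.05). Leaving out 1 library gave 0 to 560. Omitting naive replicates 1, 2 and 3 gave 107, 560 and 7, and omitting each allograft 0 (848 to 1074 at an unadjusted p under 0.05). The causes were not tested. DESeq2's size factors moved the median log2 fold change of all genes by -0.19, from -0.01 to -0.20, limma on the FPKM by 0.22 and 0.53, and the block by 0.57.

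Same-numbered naive and allograft libraries had deviations from their group means that correlated at 0.017, -0.020 and 0.036. The labels state no pairing, and so few values cannot exclude one. Allograft replicate 4 has no partner in the block. With it, the 4-gene sum was at -0.84. Ly6g, Ly6c1, Ly6c2 and Ly6d had 0 counts in 1 or more libraries, where depth hides levels under 0.0566 to 0.103 CPM. The deepest library, naive replicate 1, was among those at 0 for Ly6c2, Ly6d and Ly6g. The Ly6c2 share without naive replicate 3 is the value already given, since that library gives none.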
